A study of Saccharomyces cerevisiae with 12 samples.

Results

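The copy number profile of the budding yeast eco1 mutant was followed from 20 to 40 min after release from G1 arrest. The mutant, strain JG2087, carries the eco1-W216G allele, and the wild-type strain is w303a. Cells of both strains had grown exponentially in rich YPD medium, were held in G1 by α-factor, a mating pheromone, were released by washing in medium with protease, and were collected at 0, 20 and 40 min, with 2 libraries per strain and time. Of the 12 libraries, the 4 described here are those of eco1 at 20 and 40 min. They were chosen by strain and time and not by a measured value, though with earlier results of these data known. The deposited table gives, for rows of 1000 bp, the log2 ratio of each 20- or 40-min library to a 0-min library. Within a replicate the 20-min ratio was subtracted from the 40-min ratio, so that the shared 0-min library cancels. The difference, called the change below, is thus the log2 of the library-scaled reads at 40 min over those at 20 min. Each was centred on its median over the nuclear rows, and 11630 of 12165 rows were kept. A positive change means more DNA at 40 min relative to the nuclear median than at 20 min, and says nothing of the total DNA of the cells.

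Eco1 acetylates the cohesin subunit Smc3 while DNA is copied, which lets the ring-shaped complex hold sister chromatids together. In S phase, origins fire in a typical order, so that early regions are duplicated while late ones are still single. The ratio of early regions is high at first and returns toward the genome level as late regions are copied. A change over time in such a profile is therefore commonly read by setting it against the order of copying. Centromeres are known as early regions, and chromosome ends and the silent mating loci as late ones.

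The 4 libraries held 7372940 and 10362815 mapped reads at 20 and 40 min in replicate 1, and 7909786 and 5293237 in replicate 2, of which the last was the lowest of all 12. Their median reads per row were 643, 897, 692 and 467. Counting error alone was due to give an SD over rows of 0.075 in the change of replicate 1 and 0.086 in that of replicate 2, and 0.024 and 0.028 over windows of 10 kb. Such figures cover counting error only. The eco1 40-min library of replicate 1 stood apart. With each chromosome centred, its profile correlated with the other 3 eco1 profiles at r = 0.50 to 0.62 over 1179 windows, while those 3 correlated with each other at 0.83 to 0.86. In addition, 5 rows of chromosome XV (1057001 to 1062000, sacCer3) had 1 to 4 reads in all in each of these 4 libraries, where the 0-min libraries labelled eco1 held 3967 and 3459. The 0-min libraries do not enter the change, but every level given below is a ratio to them, as are the profile correlations and contrasts. The profile correlations include the 2 windows that hold these lost rows. Without them the SD within chromosomes of the replicate 1 40-min profile was 0.045 in place of 0.085. The size of r thus rests largely on these windows, and r was not computed without them. Whether the 0-min libraries labelled eco1 came from the same strain as the later ones was not tested. Mitochondrial rows, centred in the same way, had a change of 0.74 in replicate 1 and -0.77 in replicate 2, against -0.11 and 0.65 in wild type. The labels number the replicates but name no separate cultures, so p-values rest on a spread between samples that may be technical.

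Whether any region changed its share of the DNA in eco1 between 20 and 40 min was asked over 1179 windows of 10 kb. None passed the test. By limma on the paired differences with Benjamini-Hochberg adjustment, 0 windows (0%) had an adjusted p under 0.05, and the lowest adjusted p was 0.91. Before adjustment, 48 windows (4.07%) had a p under 0.05, of which 35 were higher (2.97%) and 13 lower (1.1%) at 40 min. The change in eco1 minus that in wild type passed in 0 windows (0%) as well, with 39 (3.31%) at an unadjusted p under that value. The 2 wild-type differences shared the estimate of the spread, and the wild-type change itself also passed in 0 windows, with 180 (15.3%) before adjustment. Without eco1 replicate 2 the eco1 count was 50 windows, 45 higher and 5 lower, where replicate 1 was assumed to vary as the wild-type replicates do. Without eco1 replicate 1 it was 0, with 129 before adjustment.

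The replicates disagreed on where the change lay. Over windows, the changes of the 2 eco1 replicates correlated negatively, at r = -0.27, and over single rows at -0.34. In wild type the same correlations were 0.66 and 0.32. The eco1 change had the same sign in both replicates in 478 windows (40.5%), of which 246 (20.9%) were positive in both and 232 (19.7%) negative in both. In wild type the signs were the same in 72.4% of windows. A further 390 windows were positive in replicate 1 and negative in replicate 2, and 311 the other way round. The spread exceeded counting error in both. The SD of the change over windows was 0.080 in replicate 1 and 0.055 in replicate 2, above the 0.024 and 0.028 due from counting. The profiles also differed in contrast. Their SD within chromosomes, without the 2 windows that hold the rows lost on XV, was 0.061 at 20 min and 0.045 at 40 min in replicate 1, but 0.056 and 0.071 in replicate 2. The contrast thus was lower at 40 min in replicate 1 and higher in replicate 2.

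**Figure D1:**
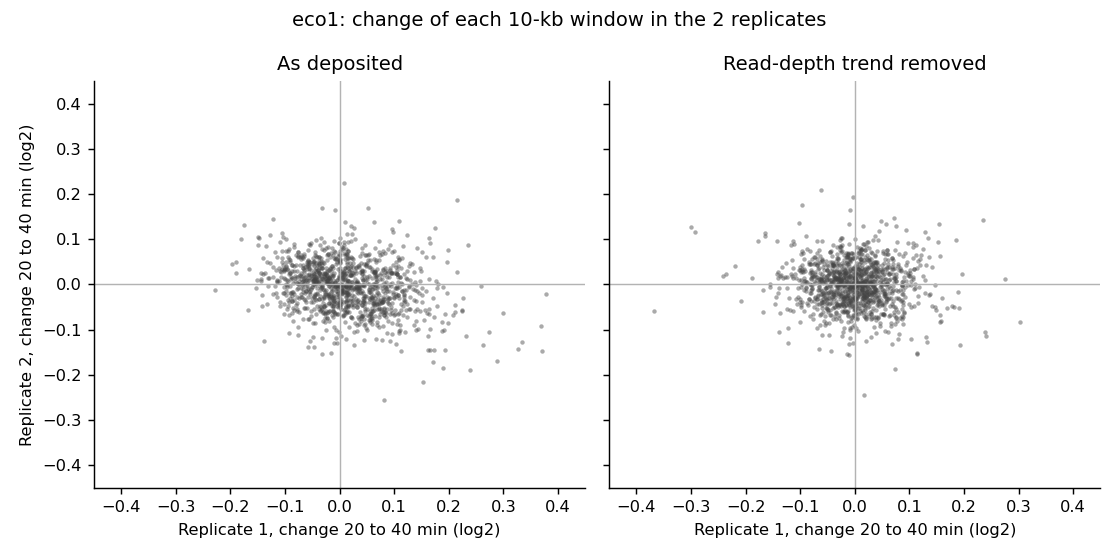
Change from 20 to 40 min (log2) of each of the 1179 windows of 10 kb in eco1 replicate 1 (x axis) and replicate 2 (y axis), 1 point per window, as deposited (left) and after removal of the trend with read depth (right). The cloud slopes down on the left (r = -0.27) and has almost no slope on the right (r = -0.069).

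The disagreement followed the local read depth in part. Rows were ordered by their reads in the eco1 0-min libraries and split into 10 equal groups of 1163. In the group of lowest depth, with a median of 464.5 reads, the mean change was 0.19 in replicate 1 and -0.059 in replicate 2. In the group of highest depth, with a median of 949 reads, it was -0.15 and 0.062. The replicates thus ran in opposite directions across the whole range. In wild type both ran the same way as eco1 replicate 1 but over a smaller span, from 0.033 to -0.023 in replicate 1 and from 0.079 to -0.041 in replicate 2. Ordering by the wild-type 0-min libraries in place of those of eco1 gave 0.20 to -0.15 in eco1 replicate 1 and -0.067 to 0.068 in replicate 2. The change also varied with the coding share of the rows, with rank correlations of -0.29 in replicate 1 and 0.12 in replicate 2. In the group with the smallest coding share, a median of 3.8% of the row, the changes were 0.12 and -0.049, and across all rows the rank correlation of the change with depth was -0.59 in replicate 1 and 0.33 in replicate 2. The libraries differed in how strongly their reads followed the wild-type 0-min depth. The slope on a log scale was 1.05 at 20 min and 0.82 at 40 min in replicate 1, and 0.98 and 1.07 in replicate 2. Whether base composition, fragment size or another property of the rows set these slopes was not tested.

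**Figure D2:**
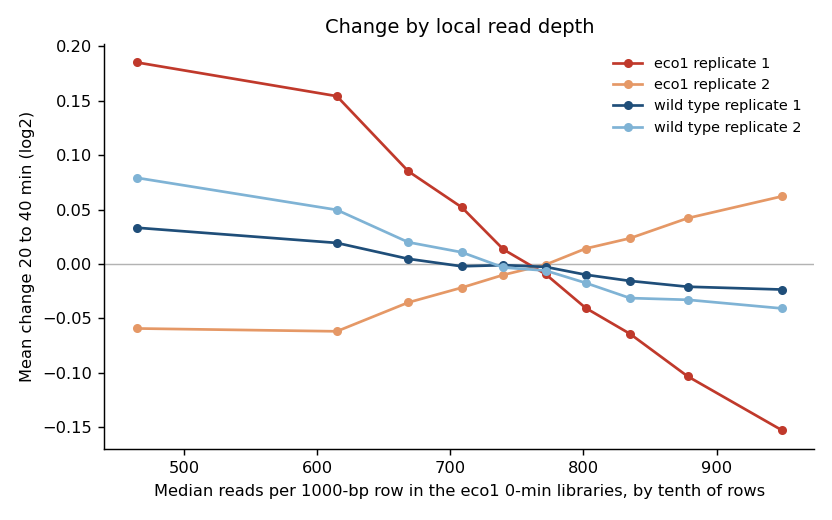
Mean change from 20 to 40 min (log2, y axis) in 10 groups of 1163 rows ordered by reads in the eco1 0-min libraries (x axis, median reads per 1000-bp row), 1 line for each strain and replicate. The eco1 lines cross, from 0.19 to -0.15 in replicate 1 and from -0.059 to 0.062 in replicate 2, and the wild-type lines lie between them at both ends.

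Because of this, a second version of every change was made by subtracting its own smooth (cubic) trend on the log2 reads of the eco1 0-min libraries, a step chosen after the data had been seen. It lowered the SD of replicate 1 over windows from 0.080 to 0.066 and brought r between the eco1 replicates to -0.069, with the same sign in 48% of windows. Over single rows r was then -0.19, with the same sign in 44.7%. The wild-type r over windows was 0.66 with and without it. The eco1 change again passed in 0 windows (0%), with 86 (7.29%) before adjustment and a lowest limma adjusted p of 0.49. By the same test 12 windows were then higher (1.02%) and 35 lower (2.97%) at 40 min in wild type, and the difference between the strains passed in 0 windows (0%), with 70 (5.94%) before adjustment. Values below are as deposited unless the removal of the trend is named.

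The change was next set against the order of copying, taken from the mean wild-type 20-min ratio, which shares no library with the eco1 columns. In replicate 2 the mean change was positive in late regions and negative in early ones. It went from 0.038 (SEM over windows 0.0049) in the latest-copied 118 windows to -0.051 (SEM 0.0049) in the earliest 118, and its slope was -0.37 per unit of wild-type ratio. Replicate 1 showed no such order as deposited. Its mean change was 0.022 (SEM 0.0079) in the latest group and 0.020 (SEM 0.0090) in the earliest, and its slope was 0.023. Neighbouring windows share forks, so these SEMs are too small. Windows with the same sign in both replicates were unevenly spread over the order, which the order in replicate 2 alone can give. In the latest group 48 of 118 windows were positive in both replicates (40.7%, against 20.9% of all windows) and 7 were negative in both. In the earliest group 43 of 118 were negative in both (36.4%, against 19.7%) and 7 were positive in both.

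With the depth trend removed, both replicates ran the same way. The mean change went from 0.021 (SEM 0.0064) in the latest group to -0.017 (SEM 0.0070) in the earliest in replicate 1, and from 0.036 (SEM 0.0048) to -0.039 (SEM 0.0047) in replicate 2. The slopes were -0.15 and -0.31. In the latest group 59 of 118 windows were positive in both (50%, against 23.9% of all windows), and in the earliest 56 of 118 were negative in both (47.5%, against 24.1%). The slope in replicate 1 held its sign when the order came from either wild-type 20-min library alone (-0.17 and -0.074), as did that in replicate 2 (-0.31 and -0.20). As deposited, the slope of replicate 1 was -0.077 with the first wild-type library and 0.089 with the second. Where each wild-type change was ordered by the other wild-type replicate, the slopes with the trend removed were -0.36 and -0.40. No test between the strains was made on these slopes. The levels behind the change, which are relative to the 0-min libraries, were low. In the earliest group, where the wild-type 20-min ratio was 0.15, eco1 stood at 0.041 and 0.048 at 20 min, and at 0.059 and -0.0072 at 40 min.

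**Figure D3:**
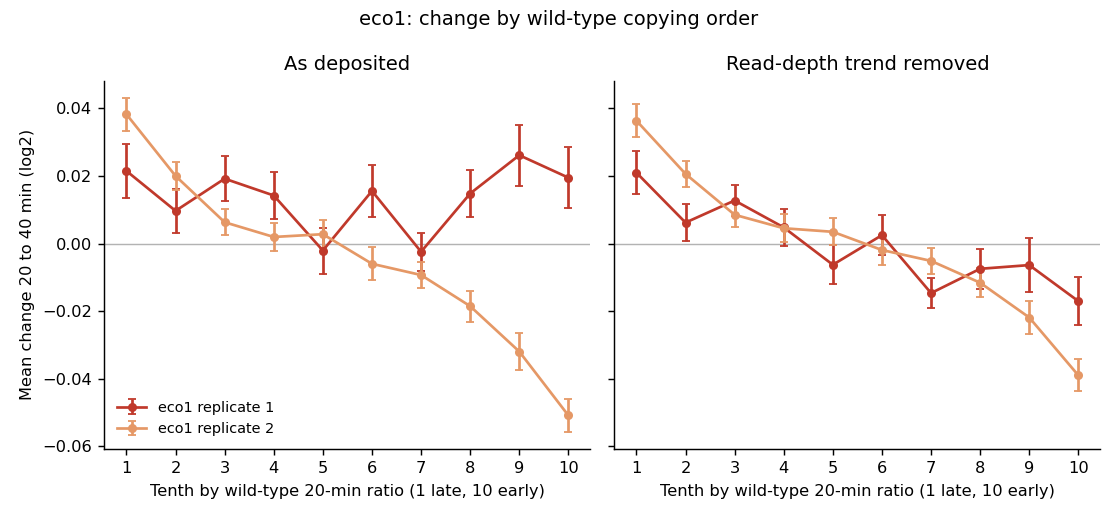
Mean change from 20 to 40 min (log2, y axis) in eco1 over 10 groups of windows ordered by the wild-type 20-min ratio (x axis, 1 latest, 10 earliest), as deposited (left) and with the depth trend removed (right). Lines are the replicates and bars the SEM over windows; replicate 2 goes from 0.038 to -0.051 on the left, while replicate 1 begins and ends near 0.02 and slopes down only on the right.

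The windows in which wild type changed most were read in eco1 too. They were picked on the wild-type change alone, at most 1 per 30 kb and 10 in each direction. Such a choice favours large wild-type values, so the sizes are not compared between the strains. Of the 10 with the most negative wild-type change, 8 were negative in both eco1 replicates (19.7% of all windows were), with medians of -0.082 and -0.058. After removal of the depth trend it was 7, without the window of the glucose transporter gene HXT3 (-0.19 and 0.013), and 24.1% of all windows were. These 10 windows were early-copied, at a median percentile of 98.2 of the wild-type 20-min ratio, so they are not separate from the earliest group above. In that group 36.4% of windows were negative in both, and 47.5% with the trend removed. The 8 include the FRE3 window, which holds rows that the 4 libraries lack. On chromosome XII (600001 to 610000) the window of CDC42, the GTPase of cell polarity, stood at 0.023 at 20 min and -0.070 at 40 min in replicate 1. In replicate 2 it stood at 0.029 and -0.084. Its change was -0.10 ± 0.011 (SD, n = 2) in eco1, against -0.23 and -0.22 in wild type. The window of SAM1, an S-adenosylmethionine synthetase gene, had changes of -0.079 and -0.058 in eco1 against -0.22 and -0.27. That of IML1, a subunit of a complex that restrains TORC1, had -0.086 and -0.081 against -0.21 and -0.18. In the window of the histone gene HTB1 replicate 1 was at 0.085 and replicate 2 at -0.073, and that of FRM2, a nitroreductase gene, was at -0.098 and 0.051. These were the 2 windows of the 10 in which the eco1 replicates had opposite signs.

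Of the 10 windows with the most positive wild-type change, 4 were positive in both eco1 replicates (20.9% of all windows were) and 1 was negative in both. After the trend was removed these were 5 and 1. Replicate 1 was positive in 9 of them and replicate 2 in 4, with medians of 0.21 and -0.030. The window of GEA2, an exchange factor for Arf GTPases, lies on chromosome V (110001 to 120000). It went from 0.034 to 0.16 in replicate 1 and from -0.013 to 0.091 in replicate 2, a change of 0.12 ± 0.011 (SD, n = 2), against 0.13 and 0.19 in wild type. The window of CMK2, a calmodulin-dependent kinase gene, had 0.11 and 0.056 against 0.14 and 0.16. In the window of SPB4, an RNA helicase gene of ribosome assembly, replicate 1 stood at 0.38 and replicate 2 at -0.020. These windows held few reads in part. Reads per row of a window are given here and below as the geometric mean over its rows in the eco1 0-min libraries. They were 463 in the SPB4 window, 260 in that of YBL005W-B and 127 in that of GEX2. Across all windows the mean eco1 change and the mean wild-type change correlated at r = 0.56, and at 0.54 with the depth trend removed. By replicate, r with the wild-type mean was 0.48 for replicate 1 and 0.16 for replicate 2, and 0.46 and 0.26 with the trend removed. The points are neighbouring windows that share forks and base composition.

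**Figure D4:**
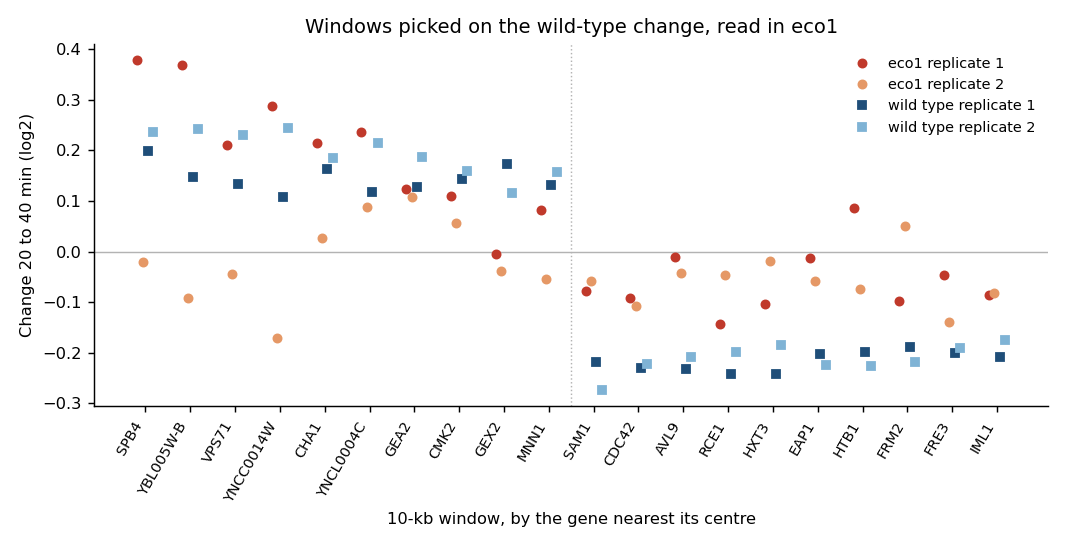
Change from 20 to 40 min (log2, y axis) in the 10 windows with the most positive (left of the dotted line) and the 10 with the most negative (right) wild-type change, named by the gene nearest the centre, with 1 point per strain and replicate. On the right 8 windows have both eco1 points (circles) below 0, while on the left eco1 replicate 1 is positive in 9 and replicate 2 in 4.

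The windows with the largest eco1 change of the same sign in both replicates are given next as values, since none passed. They were chosen on the eco1 change itself. On chromosome XIV (580001 to 590000) the window of SSN8, the cyclin C subunit of Mediator, stood at -0.12 at 20 min and 0.057 at 40 min in replicate 1, and at -0.11 and 0.013 in replicate 2. Its change was 0.15 ± 0.035 (SD, n = 2; SE of the fit 0.032), against 0.11 and 0.16 in wild type. The window of YOL038C-A on chromosome XV had changes of 0.16 and 0.10, against 0.12 and 0.15. That of TIM21, a subunit of the mitochondrial import machinery on chromosome VII, had 0.17 and 0.091, against 0.032 and 0.15. These 3 windows, read at over 700 reads per row, stood below the nuclear median at 20 min in both replicates. Both strains had positive changes in them. The windows of YNCL0004C, PUS5, YCL019W and CHA1 were positive in both eco1 replicates too, with means of 0.12 to 0.16. The window of PHO11, a secreted acid phosphatase gene at the right end of chromosome I, had 0.21 and 0.19, but only 17.2 reads per row. That of COS5, a member of a subtelomeric gene family, had 0.0085 and 0.23 at 7.28 reads per row, and its mean was negative, at -0.12, when computed from recovered reads. The window of MCM1, a MADS-box transcription factor gene on chromosome XIII (350001 to 360000), went from -0.039 to 0.069 in replicate 1 and from -0.15 to -0.017 in replicate 2. Its wild-type changes were -0.067 and -0.048, and the difference of 0.18 between the strains did not pass (limma adjusted p = 0.99). This window had 278 reads per row, and counting error alone was due to give an SD of 0.16 and 0.19. Its mean eco1 change, 0.12, was 0.026 without rows under 50 reads, 0.027 without rows over 4 median absolute deviations, and 0.030 from recovered reads.

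Among the negative windows, that of YRF1-3, a Y' element helicase gene at the end of chromosome VII, went from -0.011 to -0.15 in replicate 1 and from 0.020 to -0.11 in replicate 2, a change of -0.13 ± 0.0089 (SD, n = 2), against -0.073 and -0.074 in wild type. These eco1 values lay further apart, at -0.37 and -0.058, with the depth trend removed, and their mean was -0.067 with no filter on ratios of 0. Y' elements occur in near-identical copies, and how the authors placed reads that match several copies is not given in the sources used here. The window of YVH1, a protein phosphatase gene on chromosome IX (400001 to 410000), went from 0.35 to 0.18 and from 0.35 to 0.28, against wild-type changes of -0.061 and -0.15. It held 844 reads per row, the most among the windows named here. The FRE3 window (-0.047 and -0.14) holds rows that all 4 libraries lack, so its change rests on the remaining rows and on single reads. The other named negative windows were those of YAR010C, CDC42, RCE1, YBR298C-A, RDS1, THI12 and YGL262W, with means of -0.12 to -0.088. By limma the adjusted p of all 20 windows of these sets was 0.91.

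The 10 windows in which the replicates lay furthest apart were all positive in replicate 1 and negative in replicate 2. The largest gap was in the window of YML045W on chromosome XIII (180001 to 190000). There replicate 1 went from -0.17 to 0.20, while replicate 2 went from -0.090 to -0.24, which are changes of 0.37 and -0.15. In wild type they were -0.049 and -0.059. This window and those of YMR050C and YDR210W-B held 5 kept rows each, and that of YBL005W-B held 6. These 4 had the largest gaps, and whether they hold repeats such as Ty elements was not tested. The 10 windows held from 94.8 to 677 reads per row. The window of PEP5, a vacuolar sorting gene on chromosome XIII, was at 0.19 and -0.18 with 677 reads per row. That of NEJ1, a gene of non-homologous end joining on chromosome XII, was at 0.27 and -0.10 with 600.3 reads per row. With the depth trend removed, the medians over the 10 windows went from 0.31 to 0.17 in replicate 1 and from -0.14 to -0.11 in replicate 2, where the SPB4 window was then positive.

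No chromosome mean passed the test. The 16 chromosome means of the eco1 change had 0 calls (0%), with 0 before adjustment and a lowest limma adjusted p of 0.74. Relative to the 0-min libraries, chromosome I stood far above the nuclear median in eco1 at both times, at 0.56 and 0.53 at 20 min and at 0.52 and 0.54 at 40 min. Its change was -0.034 in replicate 1 and 0.013 in replicate 2. The other chromosomes with a clearly raised eco1 level were III, V and IX. Chromosome IX stood at 0.19 in every library and changed by 0.0055 and 0.0048. Chromosome III changed by 0.028 and 0.0083, and its mean of 0.018 was the largest eco1 change of the 16 chromosomes. Chromosome V changed by -0.0053 and -0.015 in eco1, against 0.025 and 0.029 in wild type, so that the strains did not overlap. Nor did they overlap on II, IX and XII, while they did on the rest of the 16 chromosomes. The difference on V was -0.037 (SE 0.010, limma adjusted p = 0.12 over 16 chromosomes), and 0 chromosomes (0%) passed this comparison. On chromosome XII, which carries the rDNA, eco1 changed by 0.019 and -0.0031 and wild type by -0.030 and -0.023, a difference of 0.035 (SE 0.011, limma adjusted p = 0.15). With the depth trend removed these 2 differences passed (12.5% of the chromosomes), at -0.039 on V (SE 0.0054, limma adjusted p = 0.0025) and 0.033 on XII (SE 0.0054, limma adjusted p = 0.0037). The alternatives, 14 in all, left the direction of both as it was, and the test passed in 6 of them for V and in 4 for XII.

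**Figure D5:**
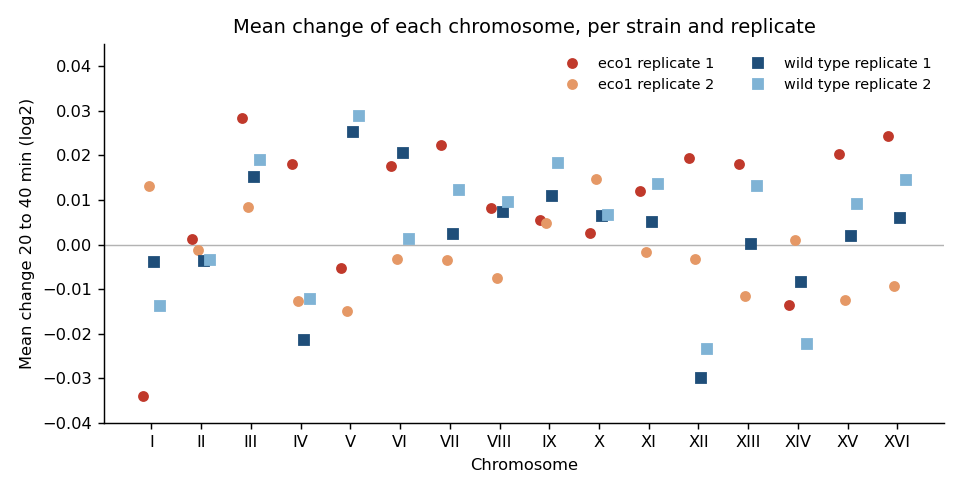
Mean change from 20 to 40 min (log2, y axis) of each of the 16 chromosomes (x axis), with eco1 replicates as circles and wild-type replicates as squares. Both eco1 points lie below 0 and both wild-type points above 0 on chromosome V, and on most chromosomes eco1 replicate 1 lies above replicate 2.

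Groups of loci were read with flanks of 2.5 kb, without a test. Over all rows the mean change was 0.012 in replicate 1 and -0.0047 in replicate 2, and 18.9% of rows were positive in both and 18.9% negative in both, 2 shares that median centring makes equal. Rows around the 16 centromeres had means of 0.11 and -0.034, and 0.037 and -0.0070 with the depth trend removed, against 0.047 and 0.066 as deposited in wild type. The 8 core histone genes, which encode the nucleosome proteins and lie in 4 divergent pairs, had means of 0.073 and -0.053, against -0.10 and -0.093 in wild type. The eco1 means were 0.0063 and -0.029 with the depth trend removed. The pair HHT1 and HHF1 on chromosome II was negative in both eco1 replicates, at -0.082 and -0.049 for HHT1. The rows around HHF1 stood at 0.14 and 0.10 at 20 min and at 0.085 and 0.019 at 40 min. On chromosome XIV HHF2 was positive in both, at 0.11 and 0.12, against 0.10 and 0.10 in wild type. Its partner HHT2 was at 0.19 and -0.014, and at 0.15 and -0.0081 with the depth trend removed, against 0.075 and 0.12 as deposited in wild type. For HTA1, HTB1, HTA2 and HTB2 replicate 1 was positive and replicate 2 negative, while both wild-type replicates were negative. With the trend removed these 4 lay nearer 0, from -0.011 to 0.040 in replicate 1 and from -0.057 to -0.017 in replicate 2, and HTA1 was negative in both. Paired genes share most of their rows.

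The late silent mating loci, which hold unexpressed copies of the mating-type genes, had the widest split of the lists. Their 14 rows had means of 0.34 and -0.096 in eco1, against 0.17 and 0.29 in wild type. They became 0.24 and -0.068 in eco1 with the depth trend removed. At HMRA1 on chromosome III the ratio went from -0.13 to 0.35 in replicate 1 and from -0.11 to -0.38 in replicate 2, and at HMLALPHA1 from -0.10 to 0.22 and from -0.084 to -0.052. HML was thus positive in both replicates, and HMR positive in replicate 1 and negative in replicate 2. These loci share sequence with the MAT locus, which makes the placing of reads uncertain. The outermost 30 kb of the chromosomes had means of -0.0043 and -0.028 in eco1, against 0.025 and 0.027 in wild type, and 27% of their 777 rows were negative in both eco1 replicates. Within that stretch, rows at 10 to 20 kb from the end had 0.033 and -0.054, and those at 20 to 30 kb had -0.024 and -0.021. With the depth trend removed the means of the outermost 30 kb were -0.038 and -0.024. Rows around Y' helicase genes, with a median of 93.8 reads in the eco1 0-min libraries, had -0.15 and 0.0099, and -0.25 and 0.020 with the trend removed. In wild type they had -0.057 and -0.12 as deposited. Of these rows 37% were negative in both eco1 replicates, against 18.9% of all rows. With the trend removed the shares were 33.3% and 22.3%.

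Rows around tRNA genes had means of 0.063 and -0.024, and those around ribosomal protein genes 0.063 and -0.010. With the depth trend removed these became 0.017 and -0.0078, and 0.014 and 0.0083, so that the replicates then lay closer together. The 5 rows of the rDNA list had means of 0.15 and 0.016, where the replicate 2 median was negative at -0.0069, and 0.19 and -0.011 with the trend removed. Genes of sister chromatid cohesion were read by their own locus as well. Of all 5985 protein-coding genes read in the same way, 21.3% were positive in both replicates and 18.8% negative in both, and 23.8% and 23.6% with the depth trend removed. Of 12 cohesion genes, 3 were positive in both and 0 negative in both as deposited, and 4 and 3 with the trend removed. The 3 were MCD1, the kleisin subunit of cohesin (0.064 and 0.0039, but -0.013 and 0.034 with the trend removed), the helicase gene CHL1 (0.11 and 0.034) and CTF4, which links the helicase to polymerase alpha (0.11 and 0.063). The list had means of 0.080 and -0.015, against 0.036 and 0.045 in wild type, and 0.042 and -0.00070 with the trend removed. The ECO1 locus itself, on chromosome VI (207452 to 208297), had changes of -0.057 and 0.0045, and -0.034 and -0.0043 with the trend removed. Among 21 genes of the replication fork 3 were positive in both and 6 negative in both, and 5 and 4 with the trend removed. The PCNA gene POL30 had 0.082 and 0.098, and the helicase subunit gene MCM7 had -0.042 and -0.046, against -0.13 and -0.088 in wild type. The list had means of -0.011 and 0.000355, and -0.0081 and -0.0014 with the trend removed. Of the 5 genes of G1 and S cyclins, 0 were positive in both and 1 was negative in both (CLN3, -0.0059 and -0.016). Their means were 0.045 and 0.0053, while the medians over rows were 0.10 and -0.022. With the trend removed 1 was positive in both and 1 negative in both, and the means were -0.00098 and 0.019. These are changes in DNA copy at the loci, and the expression of the genes was not measured.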

How the data were processed

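Genomic DNA was sequenced as Nextera XT libraries, per the labels' protocols. CASAVA 1.8.2, Bowtie and the build sacCer3 are named in the submitters' processing notes, with no role. The deposited values are log2 ratios per row of 1000 bp, per the file headers, and their smoothed score columns, deposited by the authors beside them, were not used. The values show log2 of RPM (reads scaled to library size) plus 1 over the same at 0 min, and the strain and replicate of the 0-min library were taken to match. Whole reads were recovered from the ratios (tested on simulated data, 1000 of 1000 rows recovered), and where 125 to 186 rows per replicate had several solutions the fewest reads were taken.

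Rows with a ratio of exactly 0 in any of the 8 columns, 449 in all, were left out. Windows of 10 kb needed 5 kept rows. Limma 3.58.1 (R 4.3.3) was fitted to the 4 paired differences in 2 groups, with 2 residual and 4.86 prior degrees of freedom. Pairing is by the shared 0-min library. On simulated data of 1179 windows it called 42% of changes of 0.1, 94% of 0.2 and 100% of 0.4 and 0.8, with 11 false calls among 979. There the replicates varied independently, each window's spread was pulled toward the median, and 50 windows were changed at each size. The real eco1 replicates correlated negatively, and as deposited the CDC42 window did not pass in wild type at -0.23 and -0.22. These shares therefore do not say which real changes the test could find. Named windows were the 10 largest mean changes in each direction with the same sign in both replicates, the 10 largest gaps between replicates, the 5 highest and 5 lowest wild-type 20-min windows, and the windows of the core histone genes, ECO1 and FRE3, at most 1 per 30 kb in a set and named by the gene nearest the centre. The 20 windows picked on the wild-type change were added to that rule. Genes came from RefSeq (assembly R64). Origins and Ty elements were not analysed here. Members and lists were chosen with earlier results of these data known. Alternatives were other windows, centring, row filters, order, flanks, pairing, spread, threshold, left-out replicates and, added later, removal of the depth trend.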

Additional observations from a re-analysis of the deposited data

Results flagged for a closer look

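The strains moved in opposite directions on chromosome V, where both eco1 replicates were negative and both wild-type replicates positive, with a difference of -0.037 (limma adjusted p = 0.12). The outermost 30 kb of the chromosomes showed the same split, with a difference of -0.042 that was not tested. The window of MCM1 was positive in both eco1 replicates and negative in both wild-type ones, by 0.18, and the window of YGL262W at the left end of chromosome VII the other way round, by -0.13 (limma adjusted p = 0.99 for both windows). How many of all windows had such a split was not counted. Of all windows, 20.9% were positive and 19.7% negative in both eco1 replicates, and in wild type the signs were the same in 72.4%. Counting error alone was due to give an SD of 0.41 and 0.47 in the eco1 changes of the YGL262W window, at 29.9 reads per row. The mean eco1 change of that window, -0.088, was -0.038 from recovered reads and -0.046 with no filter on ratios of 0, and the MCM1 change, 0.12, was 0.026 without rows under 50 reads, 0.027 without rows over 4 median absolute deviations and 0.030 from recovered reads. The differences between the strains then were -0.088 and -0.067 for YGL262W, and 0.051, 0.049 and 0.057 for MCM1.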

How the results depend on the processing

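The count of eco1 windows past the threshold, 0, was 1 with no minimum of kept rows (YJL225C on X, 1 row, changes of -0.59 and -0.60, limma adjusted p = 0.0058). It also moved when eco1 replicate 2 was left out, where the single replicate left in a strain was assumed to vary as the other strain's do. The count for eco1 minus wild type ran from 0 to 1, and that of chromosomes for the eco1 change was 0 throughout. For eco1 minus wild type in chromosomes it ran from 0 to 2, with 2 under mean centring, with the depth trend removed, without rows under 50 reads and without rows over 4 median absolute deviations. With no replicate block the counts were 0, 0 and 0, with 27 windows of the eco1 change at an unadjusted p under 0.05, and with recovered reads and the replicate block they were 0 as well, with 54. The correlation between replicates, -0.27, was -0.069 with the depth trend removed. The slope of replicate 1 on the wild-type order, 0.023, was 0.72 when ordered by the wild-type 40-min ratio, where replicate 2 had -0.26, and the cause was not tested. The mean of the replication fork genes, -0.0054, was -0.014 with a flank of 1 kb. Among 304 values of named windows under alternatives, 296 kept direction and side of the threshold, 7 passed only without eco1 replicate 2, and 1 reversed, that of COS5, at -0.12 from recovered reads with the replicate block. Sizes moved more. Apart from left-out replicates, 9 of the 20 windows named for the eco1 change stayed within 1.5 times their value and 11 did not, COS5 and 10 others. The value furthest from the reported one was 0.026 for MCM1, -0.018 for THI12 (reported at -0.090), -0.037 for RDS1 (-0.093), 0.056 for CHA1 (0.12), 0.11 for PHO11 (0.20), 0.064 for YCL019W (0.12), 0.096 for YNCL0004C (0.16), -0.071 for YAR010C (-0.12), -0.038 for YGL262W (-0.088), and -0.067 and -0.21 for YRF1-3 (-0.13). A planned count model was not run, because the deposited values are log2 ratios. The limits are 2 replicates per strain, a change smaller than the gap between replicates, and a lowest depth of 467 median reads per row.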

Other observations

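Distance from the centromere gave a further description. Rows within 5 kb had mean changes of 0.073 in eco1 replicate 1 and -0.025 in replicate 2, and those at 20 to 50 kb had 0.021 and 0.027, against 0.036 and 0.039 in wild type. In the latter range both replicates of both strains were positive, also with the depth trend removed (0.0091 and 0.031 in eco1). The same held at 50 to 100 kb, with 0.018 and 0.0057 in eco1, and 0.0081 and 0.0080 with the trend removed. At 10 to 20 kb eco1 had 0.018 and -0.027, and both wild-type values were negative.

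The 5 lowest wild-type 20-min windows held 2 that were positive in both eco1 replicates, those of UBR1, the ubiquitin ligase of the N-degron pathway (0.072 and 0.096), and YNL054W-B (0.021 and 0.13), where 20.9% of all windows were. YNL054W-B was at -0.010 and 0.13 with the depth trend removed. Of the 5 highest, 2 were negative in both, those of DAL3, an allantoin degradation gene (-0.058 and -0.14), and HHF1 (-0.057 and -0.076), where 19.7% of all windows were.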
